A study of Mus musculus with 32 samples.

Results

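Open chromatin was compared between the anterior and the posterior part of the hindlimb bud in 8 control libraries, 4 of each side, from mouse embryos numbered 1 to 4 that each gave 1 anterior and 1 posterior library. These 8 are part of a series of 32 ATAC-seq libraries (assay for transposase-accessible chromatin, which cuts and tags DNA where nucleosomes leave it open). The libraries were chosen by their labels, WT_Control with an embryo number and an A or a P, which were read here as anterior and posterior. The label stage was E10.5, whereas the methods of the study give a later day for the harvest of this experiment, after doxycycline. The controls are described in one place as carrying iHA-Etv2 and ROSA26-STOP-rtTA-IRES-EGFP without HoxB6-Cre, and in another as littermates that lack iHA-Etv2 or the rtTA transgene. The labels and methods refer to a sort of EYFP+ cells without endothelial and blood surface markers, but no EYFP reporter is among the alleles given for these embryos, so which cells were taken is unclear. Each library came from the limbs of 1 embryo.

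A second set served as a check in other animals. It held 3 anterior and 3 posterior libraries of Etv2_OE embryos 7, 9 and 10, in which HoxB6-Cre, active in the hindlimb mesoderm, switched on rtTA and thereby the doxycycline-inducible iHA-Etv2. In part of such embryos the study saw Shh, Gli1 and Ptch1 expressed at the anterior hindlimb margin as well, and extra anterior digits. This set is therefore not an unaltered repeat of the contrast between sides. Single E10.5 libraries of anterior hindlimb and of Shh-EGFP+ posterior cells were read beside them without a test.

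The anterior-posterior axis of a limb bud is set by Sonic hedgehog (SHH), a signal secreted from the posterior margin. HAND2 and the 5' HOX proteins act on the posterior side and favour Shh expression there. GLI3 in its repressor form, ALX4 and PAX9 mark the anterior side, and Ptch1, which encodes the SHH receptor, is itself switched on by the signal.

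The deposited lists give each peak of accessibility by its summit, the base with the strongest signal, and by the −log10 q-value of the peak caller MACS2. The anterior lists were shorter, with 40945 to 45762 summits (median 43701.5), and the posterior lists held 51265 to 54676 (median 53182), so that list length and side cannot be told apart. The −log10 q-value at rank 30000 lay between 4.89 and 6.65 in the anterior lists and between 6.98 and 8.19 in the posterior lists. Lists were therefore compared by rank among their first 30000 summits. Windows of 200 bp were placed on the best-ranked summits, and the 43558 windows listed in at least 2 of the 8 libraries are called intervals below. The rank score of an interval was 1 for the first summit of a list, fell with rank, and was 0 where none of the 30000 summits lay within 200 bp. All differences are anterior minus posterior. As in any tissue sample, fewer cells with an open site and less opening in each cell cannot be told apart. The labels also carry a tag whose meaning they do not give, which ran from S1 to S7 over the anterior and from S8 to S14 over the posterior libraries of both genotypes, so the tag's range and the side cannot be told apart either.

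Both libraries of control embryo 1 stood apart from the other controls. For AGGAAGT, the core word bound by ETS factors such as ETV2, the deviation (listed intervals that hold the word over the number their GC content leads to, minus 1) was 0.0877 in its anterior and 0.0945 in its posterior library. It was between -0.0258 and -0.00298 in the other 6 control libraries and between 0.0296 and 0.0968 in the 6 Etv2_OE libraries. Embryo 1 thus lay inside the range of the Etv2_OE embryos and outside that of its own group. Its lists held 17 and 18 summits on the Y chromosome, against 53 to 67 in the other controls and 15 to 21 in Etv2_OE. Rank scores of its anterior library correlated across intervals at a mean of 0.725 with the other control anterior libraries and 0.739 with the Etv2_OE anterior libraries, whereas its posterior library gave 0.753 with control and 0.747 with Etv2_OE. Summit counts on the Y chromosome follow the sex of an embryo, which the study did not determine. The genotype of embryo 1 was not tested, nor was the part of sex in these values. The main results were therefore also computed without both of its libraries, a setting added once the data had been seen. No pair of the 8 lists was identical, and rank scores correlated across intervals at 0.715 to 0.769 between libraries of the same side and at 0.655 to 0.714 between sides.

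The sides parted at single sites, and the DNA of the sites on which the results turn is shown first, most of them chosen after their values were seen. Each sequence is the plus strand of build GRCm38 (mm10) over 1 interval, taken from the GRCm38.p6 assembly. Capitals mark, on either strand, the words CAATAAA (read by HOX13 proteins, in 5.25% of all intervals), CTCGTAAA (the form of that site with a CpG, 0.367%), TGTTTAC (forkhead proteins, 3.21%), TGATTNAT (HOX with PBX, 2.69%), CTAATGG (ISL1, 2.07%) and CATATG (TWIST-type E-box, 3.30%). A match describes the letters and is not evidence of binding. The first 4 intervals were ranked higher in posterior limb. They lie between genes 166107 bp from the start of Isl1 (chr13:116143215-116143414), between genes 81113 bp from the start of Abi3bp (chr16:56396670-56396869), in an intron of Phldb2 (chr16:45880381-45880580) and in an intron of 4930422I22Rik, 43273 bp from the start of Tspan8 (chr10:115860457-115860656). The Isl1 and Abi3bp intervals hold the HOX13 word on the minus strand, and the Abi3bp interval a forkhead and a HOX-PBX word besides. The Phldb2 interval holds the CpG form. The Tspan8 interval, with the largest posterior difference of all, held none of the 6 words.
Isl1 interval: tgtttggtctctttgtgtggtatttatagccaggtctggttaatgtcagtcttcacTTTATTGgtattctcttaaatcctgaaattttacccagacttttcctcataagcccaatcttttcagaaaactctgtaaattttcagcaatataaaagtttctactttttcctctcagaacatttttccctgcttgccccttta
Abi3bp interval: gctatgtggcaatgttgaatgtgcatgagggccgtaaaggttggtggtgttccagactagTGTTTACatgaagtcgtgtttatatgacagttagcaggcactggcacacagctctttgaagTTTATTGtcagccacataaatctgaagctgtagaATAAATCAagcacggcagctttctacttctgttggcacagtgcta
Phldb2 interval: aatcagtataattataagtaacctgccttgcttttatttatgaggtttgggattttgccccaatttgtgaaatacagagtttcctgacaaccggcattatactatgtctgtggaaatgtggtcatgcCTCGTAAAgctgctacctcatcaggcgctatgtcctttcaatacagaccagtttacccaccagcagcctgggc
Tspan8 interval: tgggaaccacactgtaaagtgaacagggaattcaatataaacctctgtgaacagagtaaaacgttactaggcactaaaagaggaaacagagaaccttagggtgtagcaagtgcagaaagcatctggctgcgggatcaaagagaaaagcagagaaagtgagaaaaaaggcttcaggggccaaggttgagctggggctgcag

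The next 3 were ranked higher in anterior limb. They lie in an intron of Dtd1 (chr2:144700655-144700854), between genes 240453 bp from the start of Stim2 (chr5:54238918-54239117) and in an intron of Slc25a21, 23044 bp from a start of Pax9 (chr12:56718583-56718782). The first holds the HOX-PBX word, the second the ISL1 word and the last the TWIST-type E-box.
Dtd1 interval: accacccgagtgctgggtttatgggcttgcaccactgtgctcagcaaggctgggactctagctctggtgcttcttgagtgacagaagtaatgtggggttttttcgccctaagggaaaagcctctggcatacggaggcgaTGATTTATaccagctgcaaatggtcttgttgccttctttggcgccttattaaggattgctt
Stim2 interval: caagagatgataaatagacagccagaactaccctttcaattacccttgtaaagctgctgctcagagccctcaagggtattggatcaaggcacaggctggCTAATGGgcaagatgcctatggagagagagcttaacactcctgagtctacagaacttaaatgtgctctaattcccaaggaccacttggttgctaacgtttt
Pax9 interval: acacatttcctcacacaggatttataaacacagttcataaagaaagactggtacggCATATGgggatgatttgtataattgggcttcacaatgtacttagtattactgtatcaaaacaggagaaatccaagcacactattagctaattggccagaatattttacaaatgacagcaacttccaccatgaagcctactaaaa

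The interval at Ptch1 lies in an intron of that gene, 39105 bp from its nearest start (chr13:63525330-63525529), was listed among the first 30000 summits of posterior libraries only, and held none of the 6 words. The interval with the largest anterior difference lies between genes 328 bp from the start of Gmnc (chr16:26991880-26992079) and holds the TWIST-type E-box. Its difference came with a moved summit, as described further on.
Ptch1 interval: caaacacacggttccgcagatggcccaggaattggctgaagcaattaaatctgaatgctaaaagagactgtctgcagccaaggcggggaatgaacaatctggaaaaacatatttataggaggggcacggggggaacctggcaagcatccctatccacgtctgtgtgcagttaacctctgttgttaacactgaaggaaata
Gmnc interval: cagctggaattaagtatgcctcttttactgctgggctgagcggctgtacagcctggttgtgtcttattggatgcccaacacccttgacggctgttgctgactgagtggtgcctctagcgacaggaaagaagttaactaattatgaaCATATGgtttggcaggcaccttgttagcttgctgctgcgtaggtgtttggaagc

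Most accessible sites did not separate the sides, and 13833 of the 43558 intervals were listed in all 8 libraries. By limma with Benjamini-Hochberg adjustment, 406 intervals (0.932%) were higher in anterior and 512 (1.18%) in posterior hindlimb, and in every one of them the 4 libraries of one side lay above the 4 of the other. Over all intervals, the sides did not overlap in 1478 (3.39%) with anterior higher and in 1665 (3.82%) with posterior higher. The median difference of the called intervals was 0.46 in anterior and -0.473 in posterior direction, against 7.5e-05 for all intervals. With the embryo number as a block in the fit, 34 and 42 intervals were called, and with limma's variance trend none, the smallest adjusted p being 0.0585 and 5388 intervals having an unadjusted p under 0.05 against 5591 in the fit used here. Without embryo 1, 328 and 388 intervals were called, 435 of them among the 918. Without 1 library the anterior count lay between 247 and 446 and the posterior count between 338 and 576. Without anterior replicate 1 they were 410 and 338, and with whole lists 432 and 1954.

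Presence alone gave similar numbers. Listed in all 4 anterior and in no posterior library were 434 intervals (0.996%), and 530 (1.22%) were listed in all 4 posterior and in no anterior library. Of these, 172 and 207 were also called by limma. Absence from the first 30000 summits was often a matter of rank, since 346 and 327 of them had a summit within 200 bp in a whole list of the other side. Without embryo 1 the rule of presence, now 3 of 3 against 0 of 3, was met by 895 and 1050 intervals.

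The 8 posterior intervals with the largest differences, chosen by a rule on size, lay nearest to Tspan8, Isl1, Rpia, Atxn7l2, Sfxn3, Isoc1, Rab33b and Abi3bp. At Tspan8, which encodes a tetraspanin of the cell surface, the posterior rank scores were 0.889, 0.905, 0.906 and 0.828, and all 4 anterior scores were 0 (difference -0.882, SE 0.0334, limma adjusted p = 9.27e-05). At the interval near Isl1, a LIM homeodomain gene needed for hindlimb initiation, they were 0.862, 0.884, 0.922 and 0.873 against 0.0385 in anterior replicate 2 and 0 in the other 3 (difference -0.875, SE 0.0325, limma adjusted p = 9.27e-05). The sides were far apart at both sites, and every posterior score exceeded every anterior score.

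Near Abi3bp, which encodes a protein of the extracellular matrix, posterior scores ranged from 0.783 to 0.872, and the single anterior library with the site in its first 30000 summits, replicate 2, had 0.13. In the intron of Phldb2, whose product sits at the cell cortex, the posterior scores were 0.651, 0.723, 0.871 and 0.714 and no anterior library listed the site within its first 30000 summits (difference -0.74, SE 0.0505, limma adjusted p = 0.000599). The interval 435766 bp from Rpia, an enzyme gene of the pentose phosphate pathway, had posterior scores from 0.83 to 0.937 and was absent from all 4 anterior lists, whole lists included. The same order was seen in the Etv2_OE embryos, with differences of -0.685 at Abi3bp, -0.602 at Phldb2 and -0.876 at Rpia.

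Several of the largest differences came with a shifted summit rather than an absent peak. At Atxn7l2, Sfxn3 and Rab33b the nearest anterior summits lay 225 to 237, 207 to 261 and 202 to 290 bp from the interval, just beyond the 200 bp within which a summit counted. Scored by the best summit within 500 bp, an alternative chosen after seeing the data, these 3 differences became 0.0181, 0.0148 and -0.0141. On the anterior side the same held for Gmnc (posterior summits at 223 to 310 bp), Tbck (207 to 246 bp), Fam19a2 (243 to 245 bp) and Zfp260 (203 to 247 bp), whose differences became 0.0683, -0.0162, -0.117 and -0.0219. Robo2 and Ikzf2, with posterior summits at 490 to 924 and 466 to 738 bp, no longer passed (limma adjusted p = 0.182 and 0.623). At 500 bp 373 of the 406 anterior and 470 of the 512 posterior calls remained, out of 562 and 651.

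The anterior intervals that passed at both distances were led by one in an intron of Mctp1, 207247 bp from the start of Slf1. Its anterior scores were 0.857, 0.821, 0.856 and 0.766, and only posterior replicate 3 listed it within its first 30000 summits, at 0.105 (difference 0.799, SE 0.0419, limma adjusted p = 0.000289). In an intron of Rufy3 the anterior scores were 0.907, 0.68, 0.644 and 0.853 and no posterior library listed the site within its first 30000 summits. An interval 404109 bp from the start of Zic1, a zinc-finger gene of dorsal mesoderm and neural tissue, had 0.849, 0.638, 0.84 and 0.719 against 0 in all 4 posterior libraries. In the intron of Dtd1 the anterior scores ranged from 0.817 to 0.871, and posterior replicate 1 alone listed the site within its first 30000 summits, at 0.33. The anterior and posterior libraries did not overlap at any of these 4 sites. With the embryo block the Mctp1 and Zic1 intervals still passed (limma adjusted p = 0.0436 each). The Rufy3 and Dtd1 intervals did not (limma adjusted p = 0.054 and 0.0693).

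**Figure D1:**
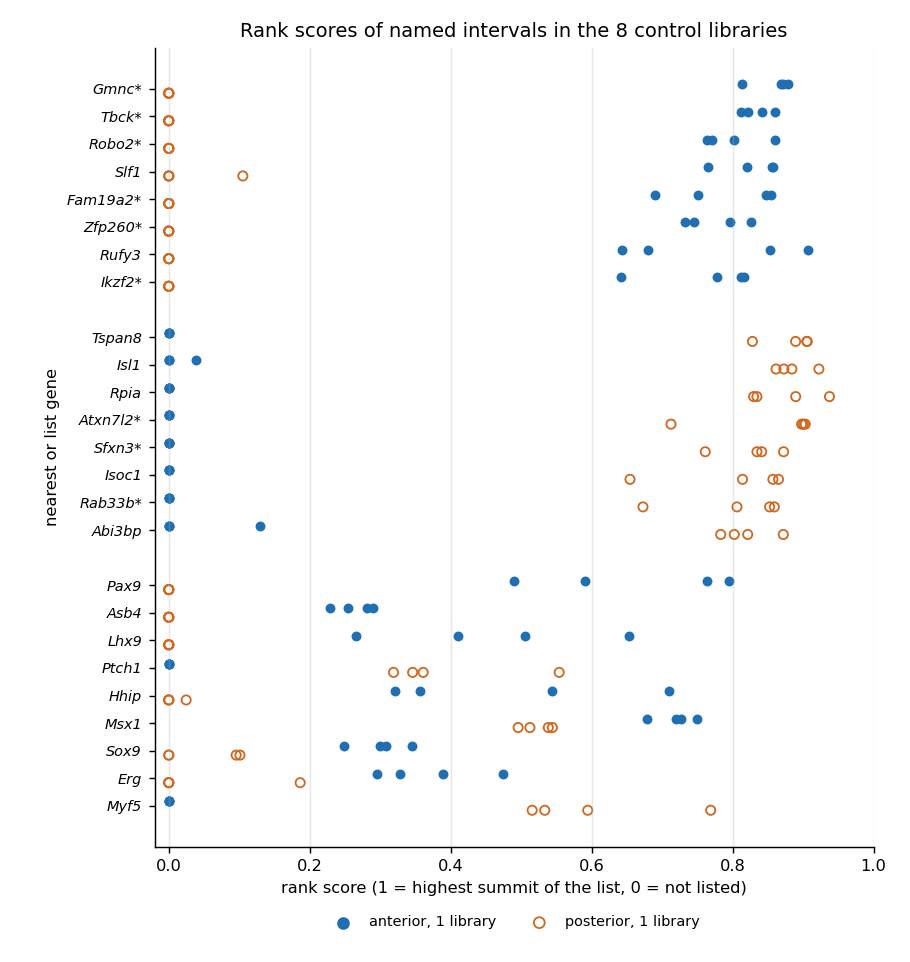
Rank score (horizontal axis, no unit) of the 8 intervals with the largest difference in each direction and of the 9 called intervals near genes of the lists, in each of the 8 control libraries. Each point is 1 library, and an asterisk marks an interval whose adjusted p was 0.05 or more when summits within 500 bp were counted; the sides do not overlap in any row, and 9 of the first 16 rows carry an asterisk.

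The contrast between sides was repeated in embryos that took no part in the choice of intervals. In Etv2_OE too the anterior lists were shorter, with 32666 to 37993 summits against 38148 to 47051 in the posterior ones. List length and side thus cannot be told apart in that set either. Of the 406 anterior calls, 371 had a higher mean in anterior and 30 in posterior Etv2_OE libraries, with 5 at 0, and the median difference was 0.316. Of the 512 posterior calls, 472 were again higher in posterior and 34 in anterior, with 6 at 0 and a median of -0.33. Over all 43558 intervals the Etv2_OE difference was above 0 in 20221 and below 0 in 20073. The same direction was thus found in 91.8% of the calls, and in 85.2% of the calls made without embryo 1. The 3 anterior and 3 posterior Etv2_OE libraries did not overlap in 207 of the anterior calls in the same direction (background 5.92%) and 2 in the opposite one, and in 258 of the posterior calls (background 5.99%) against 1. In the single E10.5 libraries, read to 10000 summits, 29 anterior calls were listed in Anterior only and 10 in Posterior only, and 2 posterior calls in Anterior only and 29 in Posterior only, while 360 and 474 were in neither. Over all 43558 intervals, 2452 were in Anterior only and 3887 in Posterior only, so that the 29 posterior calls in Posterior only were no larger a share than over all intervals.

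**Figure D2:**
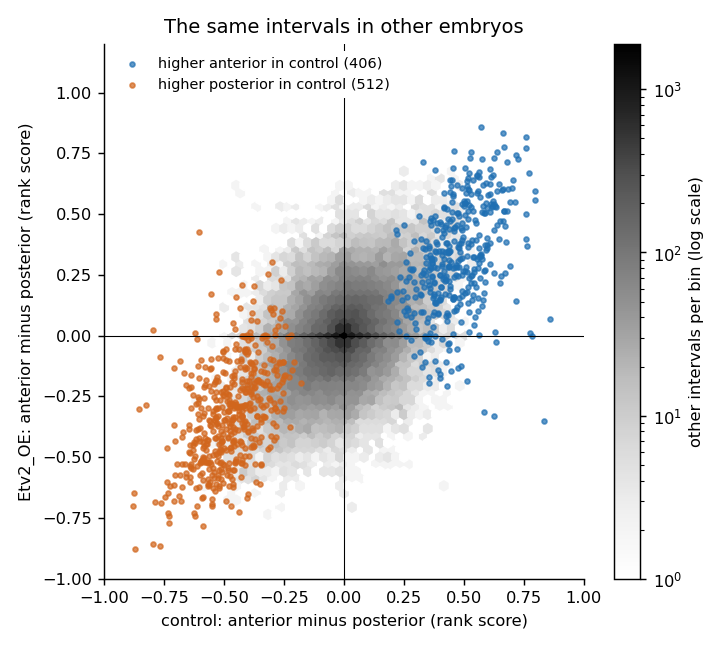
Anterior minus posterior difference in mean rank score in control embryos (horizontal axis) against the same difference in Etv2_OE embryos (vertical axis). Coloured points are the 406 intervals called higher in anterior and the 512 called higher in posterior control limb, and grey bins count all other intervals on a log scale; most coloured points, 371 and 472, lie in the quadrant of the same direction.

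A direct test of whether the contrast differed between the genotypes called 10 intervals of 43558 (0.023%) by limma, none of them with the embryo block and none with summits counted within 500 bp, and 2108 at an unadjusted p under 0.05.

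The sites that differed were mostly far from promoters. Only 22 anterior and 30 posterior calls lay within 1 kb of the start of a protein-coding gene, which is 5.42% and 5.86%, against 33.6% of all intervals. The median distance to a start was 106715 bp for anterior and 76205.5 bp for posterior calls and 18197.5 bp for all intervals. The share called rose with distance, from 0.15% and 0.205% within 1 kb to 2.84% and 2.91% beyond 500 kb. Of the anterior calls 203 were intergenic, 185 intronic and 11 in UTRs, and of the posterior calls 227, 255 and 17. The GC content was 54.6% over all intervals, 49.5% over those beyond 1 kb from a start, 46.6% in anterior and 47.8% in posterior calls. The share of the first 30000 summits within 1 kb of a start was 38.8% ± 0.28 in anterior and 38.3% ± 0.377 in posterior libraries (SD, n = 4 each). The difference of 0.562 percentage points did not pass (exact permutation test, two-sided, p = 0.0857, the smallest possible being 0.0286). It was 4.44 points with whole lists and 0.744 without posterior replicate 4, both at an exact permutation p = 0.0286.

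**Figure D3:**
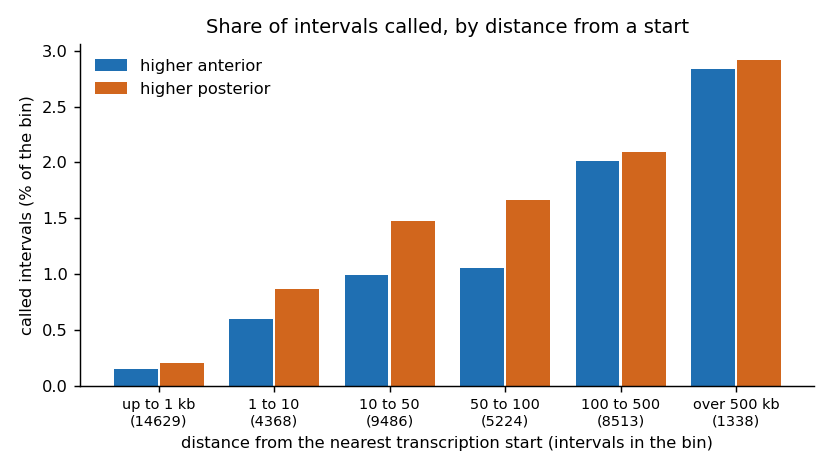
Percentage of intervals called higher in anterior (left bars) or posterior (right bars) control hindlimb, by distance from the nearest start of a protein-coding gene, with the number of intervals in each bin below its name. Both percentages are lowest within 1 kb, at 0.15% and 0.205%, and highest beyond 500 kb, at 2.84% and 2.91%.

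The genes that mark the 2 sides were then examined, with every interval within 100 kb of their starts. For Pax9, a paired-box factor gene of anterior mesenchyme, 1 of 7 intervals passed, where 0.932% of all intervals passed in that direction. Its anterior scores were 0.764, 0.591, 0.49 and 0.795, and the 4 posterior scores were 0 (difference 0.66, SE 0.0704, limma adjusted p = 0.00437, or 0.0675 with the embryo block). The Etv2_OE anterior scores of 0.592, 0.858 and 0.854 were likewise above the posterior scores of 0, 0.19 and 0.319. Upstream of Pax9 a site at 22069 bp had a difference of 0.426 (limma adjusted p = 0.0774), and the interval next to it, at 21856 bp, which shares summits with it, had 0.241. At 8701 bp upstream the difference was -0.255, with the 4 posterior libraries above the 4 anterior ones (limma adjusted p = 0.302). Neither direction passed there.

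For Ptch1, 1 of 10 intervals passed, in the opposite direction, where 1.18% of all intervals passed. Its posterior scores were 0.346, 0.554, 0.361 and 0.319, and the site was absent from the first 30000 summits of all 4 anterior libraries (difference -0.395, SE 0.0558, limma adjusted p = 0.014). The call was lost with the embryo block (limma adjusted p = 0.104) and without embryo 1 (0.0724). In Etv2_OE the posterior scores were 0.483, 0.407 and 0.599 and the anterior ones 0. Of the 10 intervals, 5 had the higher mean in anterior and 5 in posterior libraries. The sides overlapped at all but the one that passed. Upstream, anterior and posterior means were 0.296 and 0.498 at 678 bp and 0.623 and 0.648 at 2370 bp from the nearest start (limma adjusted p = 0.449 and 0.954). At 7752 bp upstream they were 0.0399 and 0.302 (limma adjusted p = 0.501). At 36012 bp downstream the order was reversed, with 0.496 and 0.329 (limma adjusted p = 0.68).

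No interval passed near Hand2 (10 intervals), Gli3 (6), Alx4 (5) or Hoxd13 (7), too few for a call to be likely at the shares over all intervals (0.932% and 1.18%). The Hand2 gene encodes the basic helix-loop-helix factor of the posterior bud. At its start the mean score was 0.144 in posterior and 0 in anterior libraries (difference -0.144, limma adjusted p = 0.574), and 8227 bp upstream it was 0.289 in anterior against 0.0545 in posterior libraries (difference 0.234, limma adjusted p = 0.562). At Gli3, the transcription factor gene whose repressor form shapes the anterior bud, an interval 32079 bp downstream of a start had a difference of 0.302 (limma adjusted p = 0.296). However, 4 of its 6 intervals had the higher mean in posterior libraries. The largest of these differences, 16996 bp upstream, was -0.206 (limma adjusted p = 0.482), and -0.472 in Etv2_OE. At Alx4, an aristaless-type homeobox gene, the sides did not overlap 17134 bp upstream of the start, with a difference of 0.258 (limma adjusted p = 0.316). Around Hoxd13 differences lay between -0.0296 and 0.142. These 4 genes thus carried differences in both directions, none of them past the threshold.

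**Figure D4:**
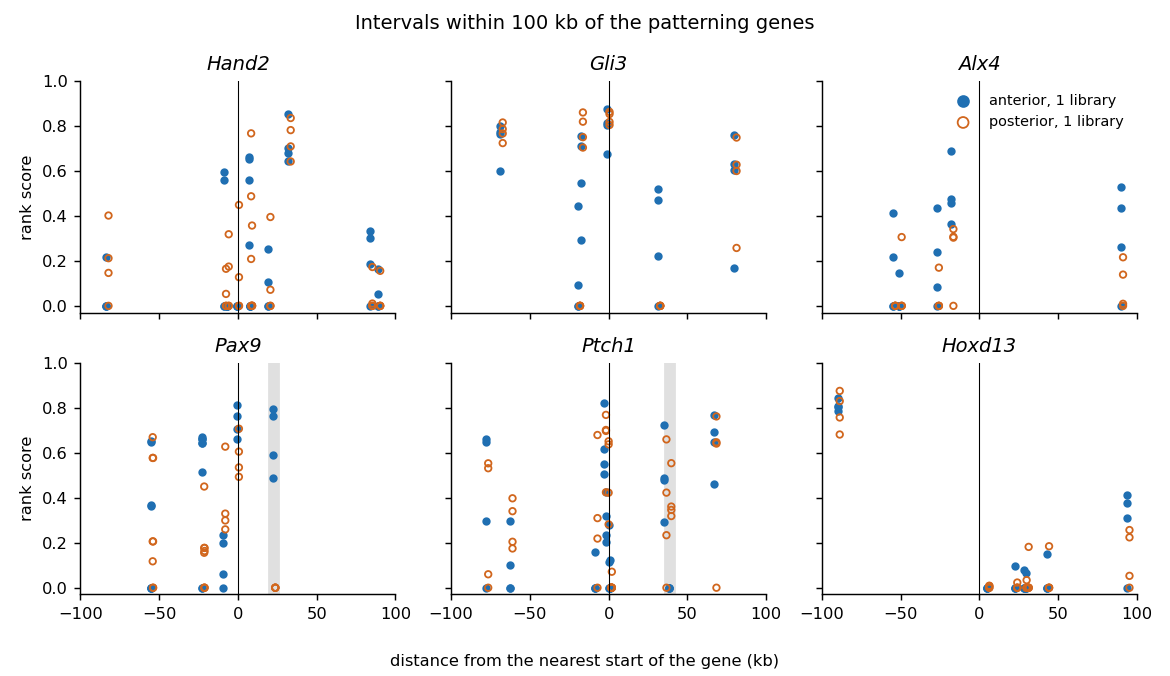
Rank score (vertical axis, no unit) of every interval within 100 kb of Hand2, Gli3, Alx4, Pax9, Ptch1 and Hoxd13 in each control library, against the distance from the gene's nearest start in kb, positive in the direction of transcription. Points of the 2 sides are moved apart slightly and grey bands mark the intervals past the threshold, 1 at Pax9 and 1 at Ptch1.

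The other genes of these pathways were taken as lists, which were drawn up with earlier results of these data known. Of 67 intervals within 100 kb of anterior patterning genes, 3 were higher in anterior and 0 in posterior limb, against 0.932% and 1.18% of all intervals, and their median difference was 0.0545 against 7.5e-05 over all intervals. In the Etv2_OE embryos that median was 0.0534, and it was 0.0445 for the intervals of blood cell markers and 0.028 for those of ectoderm and ridge markers. Besides the Pax9 interval these were promoter sites of Asb4, an ankyrin-repeat gene, and Lhx9, a LIM homeobox gene of limb mesenchyme. At Asb4 the anterior scores were 0.289, 0.282, 0.255 and 0.228 against 0 in all posterior libraries (limma adjusted p = 0.00739). At Lhx9 they were 0.653, 0.411, 0.505 and 0.266 against 0 (limma adjusted p = 0.0284). Of 13 genes of this list with a gene score, the sum of the rank scores of its intervals, 0 passed by limma and 7 had an unadjusted p under 0.05, against 1572 of all 14814 genes. The median difference in gene score was 0.249 for this list and 0.296 over the 4 blood cell markers with a gene score. The part of blood cells in the anterior list's values was not tested.

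The posterior patterning genes gave 63 intervals, of which 0 passed in either direction, with a median difference of 0.000217. The closest was an interval near Sall1, a zinc-finger gene, with a difference of -0.457 (limma adjusted p = 0.0652). Next came one near Tbx2, a T-box repressor gene, with 0.513 in anterior direction (limma adjusted p = 0.0805). That interval also lies within 100 kb of Tbx4, a gene of the limb mesenchyme list. The gene score of Tbx2 differed in the other direction, by -0.298 (limma adjusted p = 0.366). Shh itself had no interval within 100 kb, nor had Gata6 of the anterior list or Flt1 of the endothelial list. Its distant limb enhancer, the ZRS, held a summit in the whole lists of all 4 posterior libraries, at ranks 22178, 21018, 32917 and 21330, and in 2 of the 4 anterior libraries, at ranks 25042 and 37914. The first of these, the only one within 30000 summits, was the anterior library of embryo 1. All 6 Etv2_OE libraries listed it, the 3 anterior ones at ranks 19948 to 23619.

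Among 113 intervals of hedgehog response genes 1 passed in each direction, about the share over all intervals (0.932% and 1.18%), so the count says nothing particular about these genes. The second, in an intron of Hhip, whose product binds and blocks hedgehog ligands, was higher in anterior limb, with 0.709, 0.544, 0.32 and 0.356 against 0.0246 in posterior replicate 4 and 0 elsewhere (limma adjusted p = 0.0349). Among 119 intervals of limb mesenchyme genes 2 passed, both in anterior direction, where 0.932% of all intervals passed, a count too small to set the list apart. One was 93542 bp from Msx1, a homeobox gene of undifferentiated mesenchyme, where all 8 libraries listed the site and scores were 0.749, 0.679, 0.726 and 0.72 against 0.538, 0.544, 0.496 and 0.512 (limma adjusted p = 0.0291). The other was 64827 bp from Sox9, the master gene of cartilage, with 0.308, 0.3, 0.345 and 0.248 against 0.101, 0.0956, 0 and 0 (limma adjusted p = 0.0279). Without embryo 1 the Pax9, Asb4 and Myf5 intervals still passed, and Lhx9, Ptch1, Hhip, Msx1, Sox9 and Erg did not (limma adjusted p = 0.0724 to 0.202). None of these 9 passed with the embryo block (limma adjusted p = 0.0645 to 0.208).

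Marker genes of other cell types of the bud gave 2 called intervals among 6 lists, a count too small to set these lists apart. Over all intervals, 0.932% and 1.18% passed. One of 54 endothelial intervals, 936 bp from a start of Erg, an ETS gene of endothelium, was higher in anterior control limb (0.325, limma adjusted p = 0.0438) but had a difference of -0.127 in Etv2_OE. One of 32 muscle progenitor intervals lies 83131 bp from Myf5, a gene that commits cells to muscle. It is in an intron of Ptprq, and its nearest start is that of Myf6, at 74528 bp. This interval was listed in the 4 posterior libraries at 0.516 to 0.769 and in no anterior library within the first 30000 summits (limma adjusted p = 0.00299). Intervals near blood (57), ectoderm and ridge (48), neural crest and glia (29), and flank and tail mesoderm genes (30) gave 0 calls. The median differences of these 6 lists lay between -0.0192 and 0.0211. Their part in the other results was not tested.

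When the intervals within 100 kb of each nearest start were summed per gene, 22 genes of 14814 (0.149%) were higher in anterior and 37 (0.25%) in posterior limb by limma. With the embryo block none passed, without embryo 1 it was 11 and 18, and with whole lists 21 and 561. Without posterior replicate 3 only 2 anterior and 20 posterior genes passed, and without posterior replicate 4 it was 4 and 26. In Etv2_OE, 16 of the 22 and 37 of the 37 had the same direction. The posterior genes were led by Phldb2, with gene scores of 2.62, 2.0, 2.71 and 2.62 in posterior against 1.18, 0.836, 1.18 and 0.913 in anterior libraries (difference -1.46, SE 0.172, limma adjusted p = 0.0222). Cdh11, the cadherin of mesenchyme, had 1.58, 1.86, 2.16 and 2.12 against 0.792, 0.505, 0.724 and 0.814 (difference -1.22, limma adjusted p = 0.0222). Maml3, a coactivator of Notch signalling, differed by -1.1 over 16 intervals, none of which passed alone (limma adjusted p = 0.00565). The sides did not overlap for these 3 genes.

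The remaining posterior genes of the 12 with the largest differences were St3gal3, Unc80, Nostrin, Gm11096, Adcy5, Scn3a, Cep128, Rgma and Lhfpl3, with differences between -1.26 and -0.838. The 12 anterior genes were Luzp2, Rap1gds1, Tbck, Cldn10, Ankrd44, Prr5l, Rassf2, D030056L22Rik, Olfr455, Sned1, Clca3a1 and Gstcd, with differences between 0.563 and 1.1. With 10000 summits per list Rap1gds1 had -0.104 and Gm11096 0.0796, and with starts within 50 kb Unc80 had 0.0074 and Cep128 5e-05, each of the opposite sign. Cldn10, a claudin gene of tight junctions, had 1.9, 1.5, 1.72 and 1.64 in anterior against 0.989, 0.596, 0.643 and 0.604 in posterior libraries (limma adjusted p = 0.0222), but a difference of -0.00301 in Etv2_OE. One of the 2 intervals summed for Tbck is the one with the shifted summit. The gene score of Tbck had a difference of -0.562 in Etv2_OE. Without intervals within 1 kb of a start its control difference was 0.211 (limma adjusted p = 0.481). When intervals within 1 kb of a start were left out, 62 (0.744%) and 102 genes (1.22%) of 8328 passed, and 57 and 97 of them had the same direction in Etv2_OE.

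Called intervals were spread over many genes. They were nearest to 377 genes in the anterior and 478 in the posterior direction, with 53 genes in both. Only 13 genes were nearest to 3 or more, and 6 of them in a single direction. Sox9 (37 intervals), Flrt2 (28), Gsdmc (15), Pcdh20 (16) and Tfec (14) had 3 anterior calls each, and Efnb2, an ephrin gene of cell sorting and vessels, had 3 posterior calls among 27 intervals, 557615 to 1753262 bp from its start. These genes were picked for their number of calls, 0.932% and 1.18% of all intervals being called, so the counts are a description. Isl1 had 1 anterior and 2 posterior calls among its 20 intervals, 166107 to 484032 bp away, all 3 of the same direction in Etv2_OE.

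In the DNA of the listed intervals, words of some limb patterning factors separated the sides, but none passed the planned test. Of 24 words, 10 had deviations that did not overlap between the 4 anterior and 4 posterior libraries, each at the smallest p of the exact permutation test (two-sided, p = 0.0286), which gave 0.0686 after adjustment over the 24 words, so that 0 passed. By limma on the same deviations, a test added after seeing the data, 5 words were higher in anterior and 6 in posterior limb, and 6 and 8 with the embryo block. All 10 had the same direction in Etv2_OE, where 7 did not overlap (smallest possible exact p 0.1), against 11 of all 24 words. Without embryo 1, 13 words did not overlap between 3 and 3 libraries (smallest possible exact p 0.1).

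HOX13 words had the largest posterior excess. For CAATAAA the deviations were -0.119, -0.00835, -0.142 and -0.0635 in anterior and 0.113, 0.149, 0.118 and 0.134 in posterior libraries (difference -0.211, SE 0.0274, limma adjusted p = 0.000695). In Etv2_OE the means were -0.0636 and 0.126, and without embryo 1 the difference was -0.205. Of the posterior calls, 82 held the word, which is 16.02%, against 8.29% expected from their GC content and 5.67% of the anterior calls. Of these 82, 78 had the same direction in Etv2_OE, close to the 472 of 512 over all posterior calls, and the Isl1, Abi3bp and Ntrk3 intervals had the largest differences among them. The CpG form CTCGTAAA, found in 160 intervals, differed by -0.471 (limma adjusted p = 0.00116) and is the word in the Phldb2 sequence.

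The HOX-PBX and ISL1 words had their excess on the anterior side, while the homeodomain words TAATTA (0.0851, limma adjusted p = 0.0491) and TAATCC (0.02, limma adjusted p = 0.213) overlapped between the sides. The HOX-PBX word TGATTNAT had deviations of 0.066, -0.0187, 0.0495 and 0.0401 in anterior and of -0.0689, -0.0965, -0.0877 and -0.0787 in posterior libraries (difference 0.117, SE 0.0176, limma adjusted p = 0.00116). It stood in 29 anterior calls, or 7.14% against 4.37% expected and 2.54% of posterior calls, and 26 of the 29 had the same direction in Etv2_OE, close to the 371 of 406 over all anterior calls. The ISL1 word CTAATGG differed by 0.0908 (SE 0.00952, limma adjusted p = 0.000295), with 0.0845, 0.0581, 0.0534 and 0.0768 in anterior and -0.0245, -0.0266, -0.0315 and -0.00788 in posterior libraries. With 10000 summits per list its difference was -0.017. The anterior libraries were above the posterior ones for both words, although anterior replicate 2 was the lowest of its side for HOX-PBX.

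Smaller differences were found for the TWIST-type E-box CATATG (0.0877, limma adjusted p = 0.00876) and the SOX word ACAAAG (0.0287, limma adjusted p = 0.0102), both in anterior direction, though the SOX word had -0.0242 with 10000 summits per list. The forkhead word TGTTTAC (-0.0855), the GLI word ACCACCC (-0.0301), the HAND2 E-box CATCTG (-0.0445) and the MYOD-type E-box CAGCTG (-0.0321) were higher in posterior libraries, with limma adjusted p between 0.00216 and 0.0228. In Etv2_OE the sides overlapped for ACCACCC (-0.019), CATCTG (-0.0226) and CAGCTG (-0.00995). CATCTG stood in 31.1% of posterior calls against 22.4% expected and CAGCTG in 21.7% against 17.2%, whereas TGTTTAC stood in 4.69% against 4.31% and ACCACCC in 2.54% against 2.56%. The ETS word differed by 0.00261 between the sides (exact permutation test, p = 0.829), with embryo 1 high on both. The GATA word AGATAA and the TEAD word GGAATG gave 0.00532 and -0.00148.

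**Figure D5:**
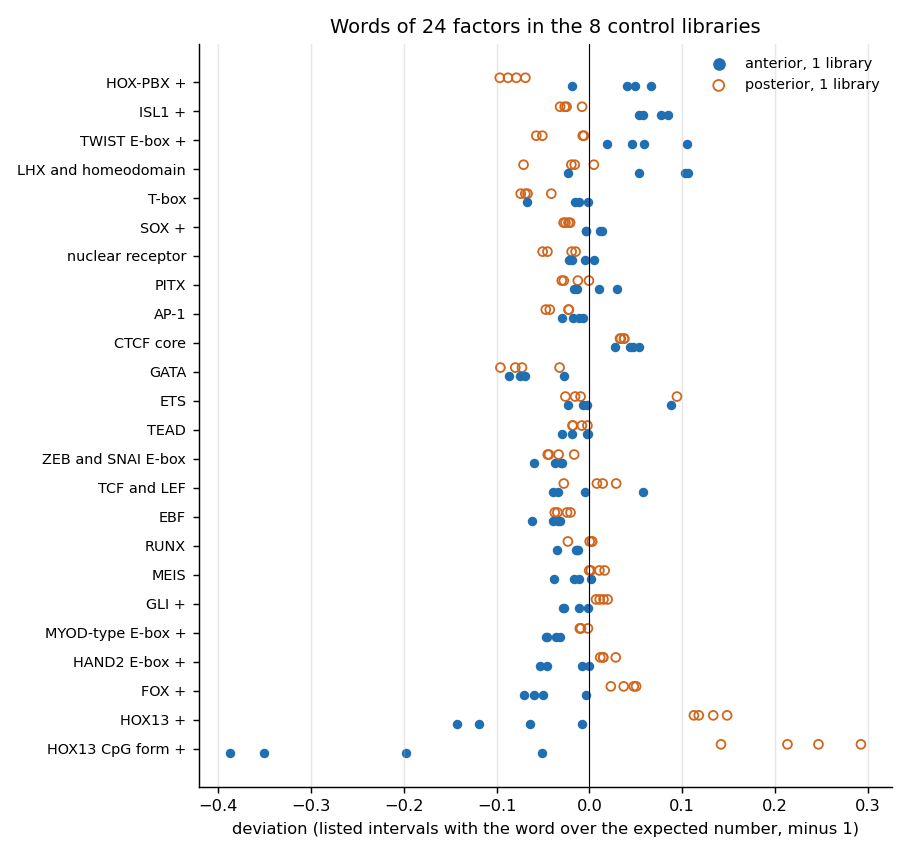
Deviation of each of 24 words in the first 30000 summits of the 8 control libraries, as listed intervals with the word over the number expected from GC content, minus 1. Each point is 1 library, rows are in the order of the difference between sides, and + marks the 10 words whose sides do not overlap; HOX13 words lie at the posterior end, HOX-PBX and ISL1 words at the anterior end, and embryo 1 is the high point of both sides for ETS.

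A count of all 2080 words of 6 bases, taken with their reverse complements, was added after seeing the data. By limma 225 (10.8%) were higher in anterior and 183 (8.8%) in posterior libraries, and 203 and 152 with the embryo block. In Etv2_OE 213 and 181 of them had the same direction. Among the 48 words with TAAT, the core of many homeodomain sites, 28 were higher in anterior and 1 in posterior libraries. Among the 48 with TAAA the numbers were 3 and 27, and among the 48 with ATAA, which several of the leading posterior words also hold, 14 and 10. The leading posterior words were TCGTAA (-0.185), ATAAAA (-0.142), GTAAAA (-0.128) and CATAAA (-0.125), and the leading anterior words AATTAG (0.115), AATTAT (0.107), AATTGG (0.0999), CAATTA (0.0995) and CATTAG (0.0939). These words overlap one another and are not independent.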

How the data were processed

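The data are ATAC-seq peak summits of single libraries. Per the study's methods and processing notes, the authors aligned reads to mm10 with Bowtie2 2.2.4, kept unique alignments, removed duplicates, shifted read starts for the transposase and called peaks with MACS2 (version not given in the sources used here), 1 list per library. The deposited value of each summit is the −log10 q-value of MACS2. The lists hold no read counts, so depth is unknown and no interval for counting error can be given. Because list length and q-values move with depth, only ranks were used.

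The first 30000 summits of each list were merged into non-overlapping 200-bp intervals around the best-ranked summits, kept if listed in at least 2 of the 8 libraries. Rank score was (30000 + 1 − rank) / 30000, or 0 with no summit within 200 bp. A summit between neighbouring intervals could count for both. Scores were compared with limma 3.58.1 (R 4.3.3), without a block, with Benjamini-Hochberg adjustment at 0.05. Scripts ran in Python 3.11.15 (numpy 2.4.6, scipy 1.17.1, pandas 2.3.3, matplotlib 3.10.9) and were tested on simulated data. Gene starts came from GENCODE M21 on GRCm38, and a gene score summed the intervals whose nearest protein-coding start, within 100 kb, was that gene's. Words were searched on both strands, with the expected number taken from 10 bins of GC content, and compared by an exact permutation test. The embryo numbers pair the libraries, since both sides came from the same embryo. Deviations from the side means correlated at 0.00496 to 0.0469 within and at -0.0264 to 0.0244 between embryos. The text names the 8 intervals and 12 genes with the largest difference in each direction among those past the threshold, and the called intervals near genes of the lists. Other intervals named, such as those of the sequences, were chosen after their values were seen. Members, lists and tests were chosen with earlier results of these data known. Alternatives changed the number of summits, distances, interval width, filter, block, variance trend and GC correction, and left out each library. Summits within 500 bp, leaving out embryo 1, limma on words and the 6-base words were added after seeing the data. The summit lists of the other groups of the series were not used here.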

Additional observations from a re-analysis of the deposited data

Results flagged for a closer look

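Of 152 groups of 4 libraries examined, 17 held 1 library far from the other 3 by Dixon's test. Chance gives about 1 in 20 for measured values, but a group with 3 scores of 0 and 1 above 0 meets the test by construction, as at Slf1, Isl1, Abi3bp, Hhip, Erg and Gstcd, so the 17 cannot be set against that rate. Among rank scores these were 0.814 at Gmnc (anterior), 0.105 at Slf1 (posterior), 0.0385 at Isl1 (anterior), 0.713 at Atxn7l2 (posterior), 0.13 at Abi3bp (anterior), 0.0246 at Hhip (posterior) and 0.186 at Erg (posterior). Among gene scores they were 0.989 for Cldn10, 0.167 for Gstcd, 2.0 for Phldb2 and 2.35 for Unc80 in posterior libraries, and 1.51 for D030056L22Rik and 1.16 for Gm11096 in anterior libraries. Among word deviations they were 0.0945 for the ETS word (posterior), -0.0345 and -0.0231 for the RUNX word (anterior and posterior) and -0.00153 for the MYOD-type E-box (posterior), all 4 in embryo 1.

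The anterior minus posterior difference was not the same in control and Etv2_OE embryos at 10 intervals by limma. The control difference minus the Etv2_OE difference was 0.899 near Dtwd2, 0.79 near Gmnc, 0.785 near Fam19a2, 0.751 near Tmem87b, 0.561 near Prdm2, 0.526 near 2410131K14Rik and 0.495 near Dct. It was -0.44 near Ttc12, -0.472 near Icos and -1.03 near Slc43a2. None passed with the embryo block or with summits within 500 bp.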

How the results depend on the processing

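The number of called intervals (918) was 96 with 10000 and 457 with 20000 summits per list, 2386 with whole lists (432 anterior, 1954 posterior), 542 with summits within 100 bp, 0 with the variance trend and 76 with the embryo block, and 652 to 941 without 1 library. The number of genes (59) was 19 with 10000 summits, 582 with whole lists (21 and 561), 20 with every gene within 100 kb, 164 without promoter intervals, 0 with the block and 29 without embryo 1. Without 1 library it was 22 (posterior 3; 2 anterior genes) to 56 (posterior 1), and 38 without anterior 1, 34 without anterior 2, 38 without posterior 2 and 30 without posterior 4. Words past the threshold (0) were 11 by limma and 14 by limma with the block, and 0 in the paired permutation test, whose smallest p of 0.125 could not pass, and 0 without any 1 library, where 14 of the 24 words would have to reach the smallest p. Intervals in all libraries of one side and none of the other (964) were 205 with 10000 summits, 568 with 20000, 1722 with whole lists (325 and 1397) and 1945 without embryo 1, and 1252 (without posterior 2) to 1485 (without anterior 2) without 1 library, where fewer libraries had to meet the rule; it was 1470 without posterior 1. Intervals that differed between genotypes (10) were 1 with 10000 summits, 55 with whole lists, 0 with the block, 0 within 500 bp, 19 without embryo 1, and 2 (without posterior 4) to 19 (without anterior 1). The difference in promoter share was 4.44 percentage points with whole lists (exact permutation p = 0.0286) and 0.439 to 0.744 without 1 library, and its paired exact p was 0.125, the smallest possible. The share of calls of the same direction in Etv2_OE was 89.1% with whole lists, 94.8% within 500 bp, 96.1% with the block and 85.2% without embryo 1, and 87.7% to 91.4% without 1 library.

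Within 500 bp the differences at Tbck, Fam19a2, Zfp260, Atxn7l2 and Sfxn3 changed sign, to -0.0162, -0.117, -0.0219, 0.0181 and 0.0148. With 10000 summits Rap1gds1 became -0.104, Gm11096 0.0796, the ISL1 word -0.017 and the SOX word -0.0242, and with starts within 50 kb Unc80 became 0.0074 and Cep128 5e-05. The cause was not tested. Over the other settings of the named items, 334 interval, 152 gene and 158 word values kept their direction and call, and 103 interval and 221 gene values kept their direction only. For words the kept call was one of not passing, which the paired exact test could not change. Another 10 word values passed, all by limma. Leaving out a library could not turn a direction where the sides did not overlap. With ranks alone, the amount of opening cannot be given, and absence from 30000 summits does not show that a site was closed.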
